A study of Homo sapiens with 28 samples.

Results

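The axon guidance ligands and receptors described here were 68 human genes of the 58219 in the deposited table. They were chosen by name, as the protein-coding genes of the ephrin, Eph receptor, semaphorin, neuropilin, plexin, slit, ROBO, netrin, DCC and UNC5 families whose level was at least 1 TPM, transcripts scaled to a fixed total, in 2 or more libraries. All 68 genes that fitted the name rule passed this filter, and 27912 genes of the whole table passed it. Of the netrins the rule covered only NTN3, NTN4 and NTN5, so NTN1 was not examined and its level is not given. The families held 5 type A and 3 type B ephrins, 9 type A and 5 type B Eph receptors, 7 class 3, 6 class 4 and 7 class 5 to 7 semaphorins, 2 neuropilins, 9 plexins, 3 slits, 4 ROBO receptors, 3 netrins, and DCC with 4 UNC5 receptors.

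Poly(A) RNA was sequenced from H9, a human embryonic stem cell line, in cells lacking the neural transcription factor SOX1 (SOX1-/-, here KO) and in wild type cells (WT). KO and WT cells were each collected as undifferentiated ES cells and on days 4 and 8 of culture under the labels IWP2, CT0.4 or CT1.0, which gave 14 groups of 2 libraries and 28 libraries in all. IWP2 is a small molecule that blocks the secretion of WNT proteins. What CT abbreviates, and the unit of its number, are not given in the sources used here. Libraries carry the numbers 26 and 48 in KO and 1 and 2 in WT. The labels do not say whether these are clones or repeat cultures, so p-values measure only the spread between these samples, which may be technical. Every group derives from H9 alone.

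A growing axon is steered by proteins it meets and by the receptors on its tip. Ephrins are membrane-bound ligands of Eph receptor tyrosine kinases, class 3 semaphorins are secreted and act through neuropilins and plexins, slits bind ROBO receptors, and netrins bind DCC and UNC5 receptors. Before axons form, Eph and ephrin proteins also keep neighbouring territories of the neural tube apart, and slits, semaphorins and netrins are laid down in patterns along its axes.

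SOX1, the check of the genotype label, was at 1.14 and 2.77 TPM in the KO CT1.0 libraries on day 8, against 72.1 and 79.4 TPM in the WT ones. The log2 difference was -4.76 ± 0.37 (SE; adjusted p = 2.58e-06, limma over all genes with Benjamini-Hochberg adjustment, as for every adjusted p here). In the other KO groups SOX1 averaged 0.0374 to 2.37 TPM, so a few reads were still assigned to the gene. In ES cells and in IWP2 on day 4 WT cells had under 1 TPM of SOX1 as well, and there it cannot check the label. In IWP2 on day 8 SOX1 had 1.96 and 2.77 TPM in KO cells, against 10.6 and 9.9 TPM in WT cells. That log2 difference of -1.75 ± 0.37 did not reach adjusted p under 0.05 (adjusted p = 0.134). WT levels of SOX1 depended on the label, with day 8 means of 10.3 TPM in IWP2, 13.5 TPM in CT0.4 and 75.7 TPM in CT1.0. The 4 WT CT libraries of day 4 stood apart, with 17694 to 18233 genes at 1 TPM or more against 18876 to 20338 in the other 24. Of 7 markers of pluripotent cells, NANOG, TDGF1 and ZFP42 were under 1 TPM in every library of day 8. There POU5F1 was at 0.82 to 5.51 TPM and L1TD1 at 0.35 to 10.3 TPM. LIN28A stayed at 401 to 688 TPM and DPPA4 at 46.3 to 148 TPM. The 7 markers summed to 484 to 844 TPM on day 8, against 4194 to 4434 TPM in ES cells. The summed level of 8 neural progenitor markers reached 1547 to 3276 TPM on day 8. Of 6 listed markers of mesoderm and endoderm, 5 were found by name, and these summed to at most 3.08 TPM on day 8. The mesoderm marker TBXT was not found under that name, so its level is not given.

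Levels across the 68 genes spanned a wide range. The median over the 28 libraries ranged from 0.0353 TPM for EPHA5 to 175 TPM for PLXNB1, a plexin that binds class 4 semaphorins, and 41 genes were at 1 TPM or more in all 28 libraries. Type A and B ephrins and the class 5 to 7 semaphorins were expressed throughout, with all 15 of their genes at 1 TPM or more in every library. No slit, and none of NTN3, NTN4 and NTN5, reached that mark in every library. Of the receptors, EPHA4, ROBO1 and EPHB4 had the highest medians in their families, at 86.4, 80.9 and 61.1 TPM. KO CT0.4 day 8 cells held the highest group mean for 15 genes, more than any other group, followed by WT CT1.0 day 8 cells with 9. For most of the 15 the second highest mean was that of WT CT0.4 day 8 cells, which were highest for another 7. Of the 68 genes, 0 were called between KO and WT cells in CT0.4 on day 8, so this ranking does not set the genotypes apart. Because these are bulk samples, fewer cells of a type and less RNA per cell cannot be told apart in any of the values that follow.

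**Figure D1:**
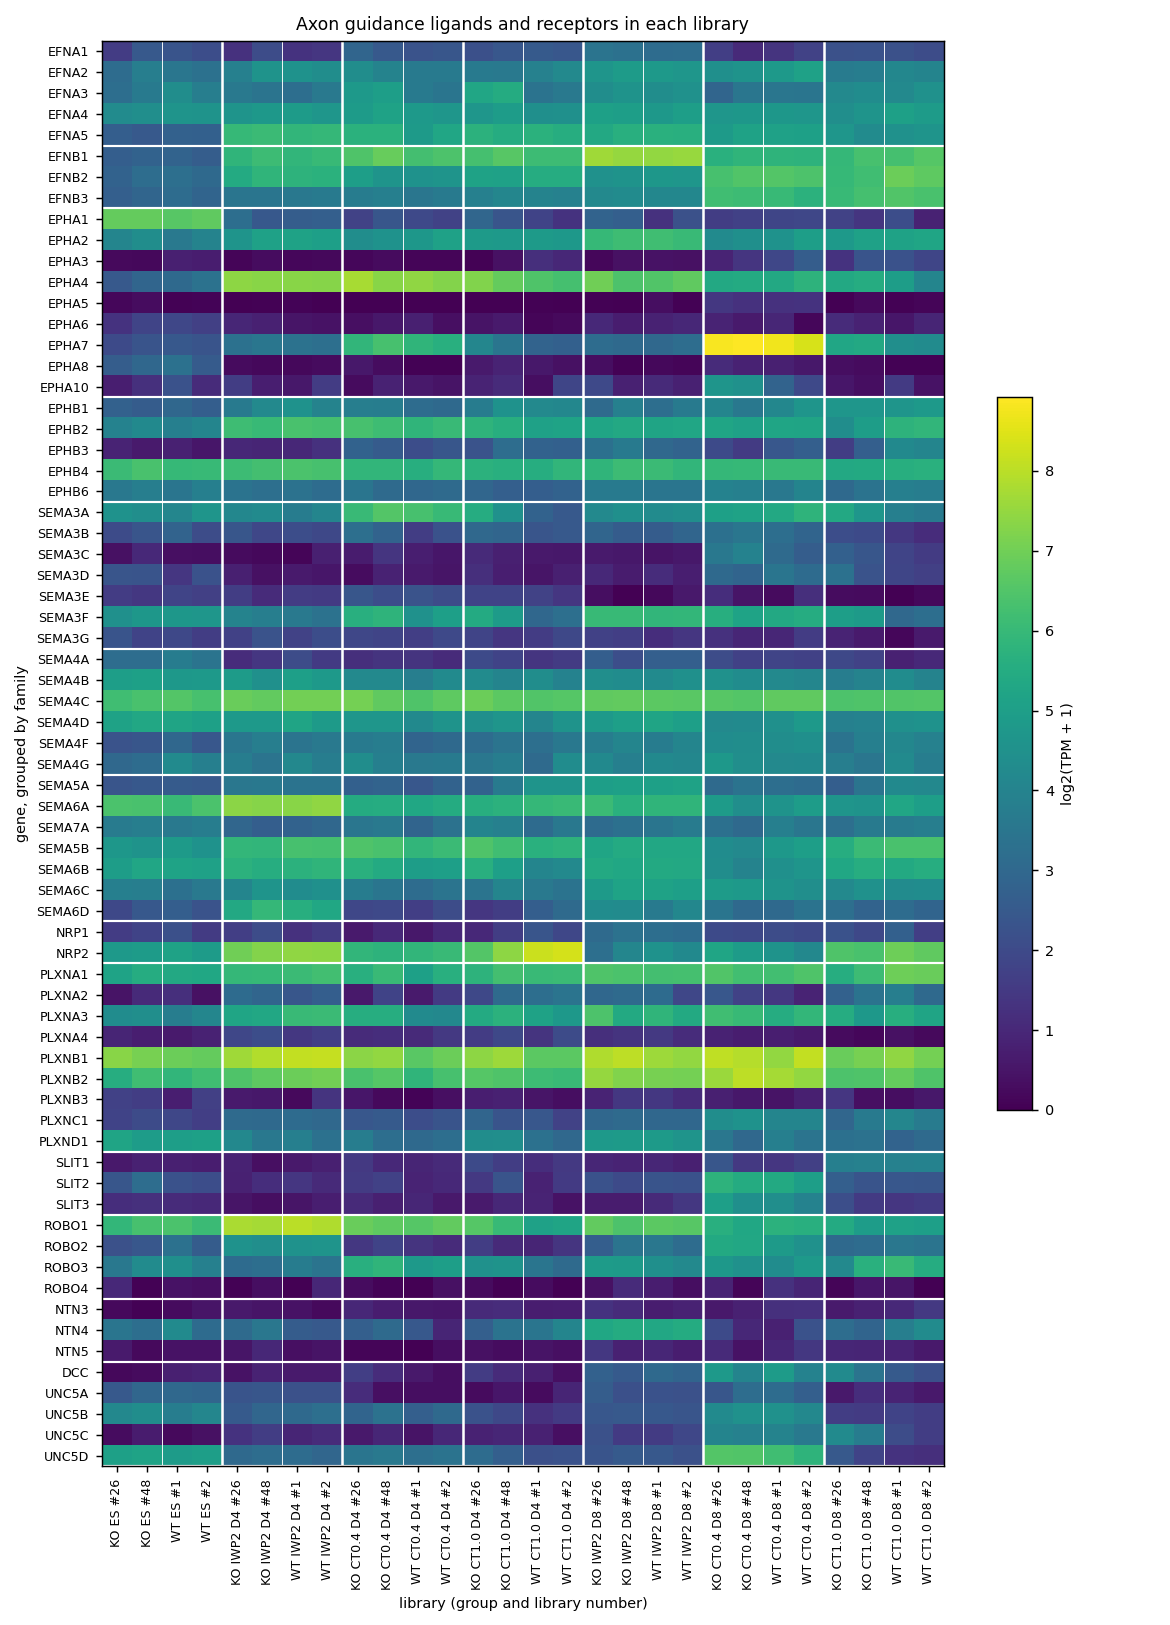
Level of each of the 68 genes, as log2(TPM + 1), by library. Rows are genes grouped by family, columns are the 28 libraries with KO left of WT within each label and day, and EPHA7 in the 4 CT0.4 libraries of day 8 (332 to 484 TPM) is the brightest block.

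Wild type cells on day 8 were compared with ES cells under each label. B ephrins, ligands that with Eph receptors help to form segment borders in the hindbrain, had a summed level on day 8 of 224 ± 5.25 TPM in IWP2, 201 ± 13.6 TPM in CT0.4 and 283 ± 5.19 TPM in CT1.0, against 20.8 ± 2.60 TPM in WT ES cells (SD, n = 2 each). All 3 B ephrins were called higher than in ES cells under each of the 3 labels, where a gene was called at adjusted p under 0.05. EFNB1 had 179 and 187 TPM in the WT IWP2 libraries of day 8, against 6.17 and 5.26 TPM in WT ES cells, a log2 difference of 4.78 ± 0.15 (adjusted p = 5.23e-13).

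EPHA1 went the other way and was lower on day 8 under every label. The IWP2 libraries had 1.4 and 3.68 TPM, those of CT0.4 had 2.66 and 2.74 TPM and those of CT1.0 had 3.3 and 0.794 TPM, against 96.8 and 106 TPM in WT ES cells. The log2 differences were -4.93 ± 0.38, -4.79 ± 0.38 and -5.21 ± 0.38, with adjusted p of 1.85e-08, 1.89e-08 and 9.09e-09 in that order. KO ES cells held a like level of EPHA1, 111 and 112 TPM, and no day 4 library of either genotype exceeded 8.45 TPM. EPHA1 is an Eph receptor of epithelia, and at these levels it separated ES cells from all later libraries.

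Against ES cells, 35 of 68 genes were called in IWP2 (27 higher, 8 lower), 49 in CT0.4 (36 higher, 13 lower) and 46 in CT1.0 (29 higher, 17 lower). Over all 27912 genes 36.9% were called in IWP2, 40.3% in CT0.4 and 35.8% in CT1.0. Of the protein-coding genes in the same fit, a closer background for a protein-coding list, 50.6%, 55.5% and 50.5% were called. For IWP2 the share of the 68, 51.5%, was therefore near that background, and it was 72.1% for CT0.4 and 67.6% for CT1.0. Median log2 differences of the 68 were 0.32, 0.73 and 0.36, against 0.17, 0.14 and 0.05 over all genes. With median-ratio scaling of the columns the split in IWP2 was 24 higher and 14 lower. Leaving out WT 1 or WT 2 gave 26 to 29 calls in IWP2, 38 in CT0.4 and 33 to 42 in CT1.0, and fitting only the libraries compared gave 31 in CT0.4.

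The call was higher under all 3 labels for 19 genes and lower under all 3 for 5. The 19 were EFNA2, EFNA5, EFNB1, EFNB2, EFNB3, EPHA2, EPHA4, EPHA7, EPHB2, EPHB3, SEMA4F, SEMA5A, SEMA6C, PLXNA1, PLXNA3, PLXNB2, PLXNC1, DCC and UNC5C, and the 5 were EPHA1, EPHA6, EPHA8, SEMA3E and SEMA4A. Another 4 genes, NTN4, SEMA3D, SEMA3F and UNC5D, were called higher under 1 label and lower under another. UNC5D, a netrin receptor, was at 54.7 to 71.8 TPM in WT CT0.4 cells and at 1.3 to 4.51 TPM in WT IWP2 and CT1.0 cells of day 8, against 29.1 and 30.7 TPM in WT ES cells. Its log2 difference from ES cells was 1.04 ± 0.20 in CT0.4 (adjusted p = 0.000371) and -3.70 ± 0.20 in CT1.0 (adjusted p = 2.15e-10). Leaving out WT 1 or WT 2 ended a call under at least 1 label for EFNA2, EPHA4, EPHA7, SEMA5A, SEMA6C, PLXNA1, PLXNB2, DCC and UNC5C, for EPHA6, SEMA3E and SEMA4A, and for NTN4, SEMA3D and SEMA3F, at adjusted p of 0.0514 to 0.741. The 3 comparisons share the WT ES libraries.

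**Figure D2:**
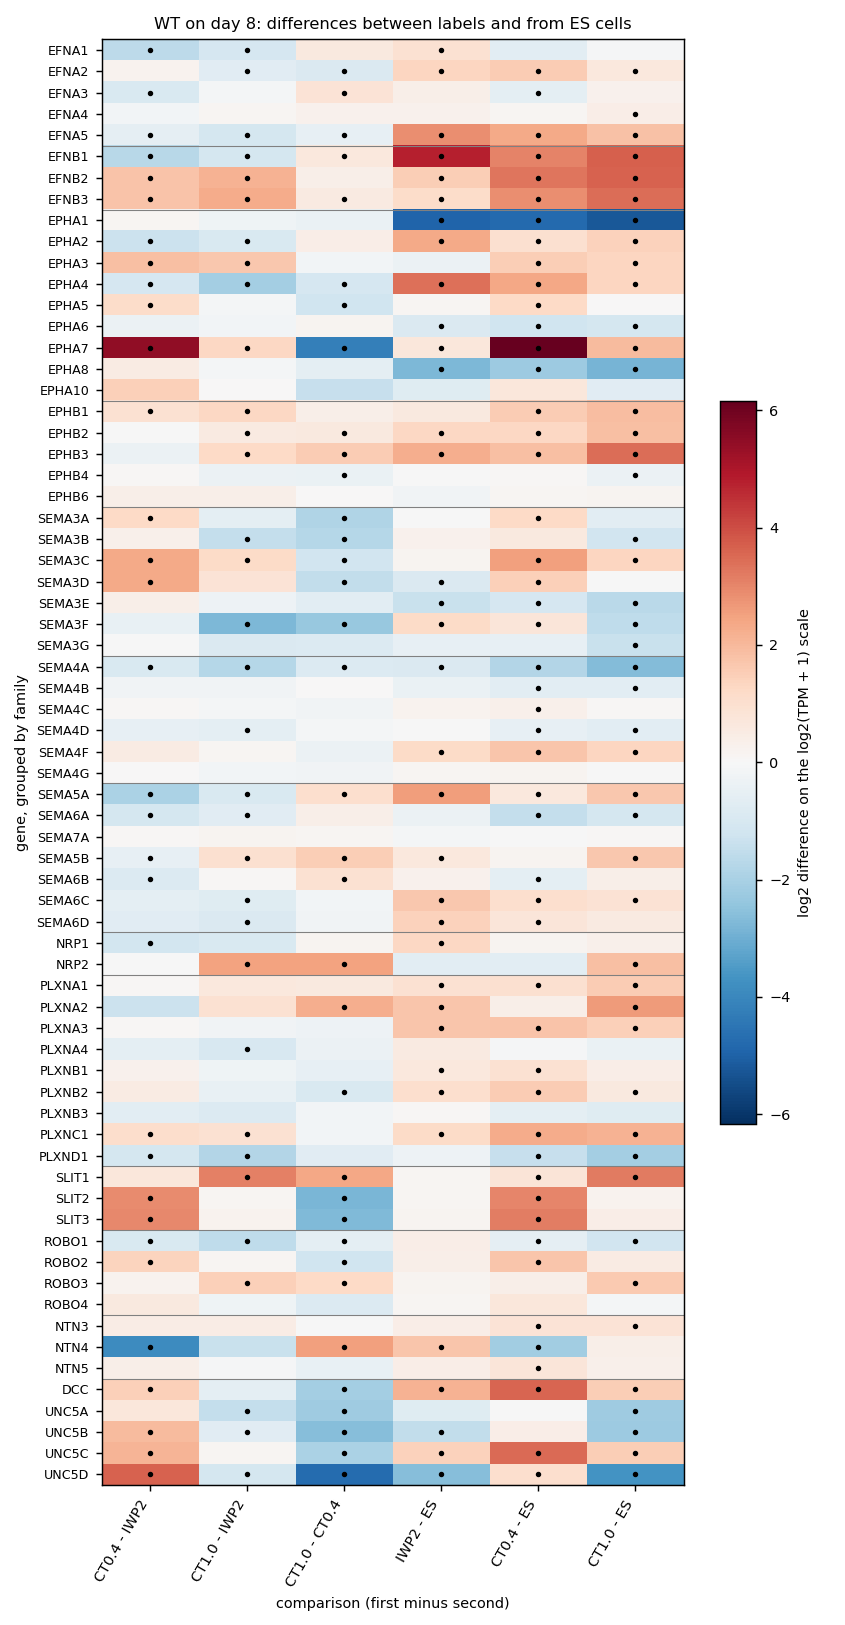
Differences in WT cells on day 8, as log2 difference on the log2(TPM + 1) scale, with genes in rows and comparisons in columns. The first 3 columns compare labels and the last 3 compare a label with ES cells; red is higher in the group named first, and a dot marks a call at adjusted p under 0.05.

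Many of these genes differed between the culture labels in WT cells. In WT cells on day 8, 32 of 68 genes were called between CT0.4 and IWP2 (17 higher, 15 lower), 33 between CT1.0 and IWP2 (13 higher, 20 lower) and 35 between CT1.0 and CT0.4 (13 higher, 22 lower). The shares of the 68 called were 47.1%, 48.5% and 51.5%, against 12.2%, 10.8% and 14.3% of all genes and 17.9%, 16.6% and 21.6% of the protein-coding genes in the same fit. Of all genes 6.29% were higher and 5.89% lower in CT0.4 than in IWP2, 2.97% higher and 7.82% lower in CT1.0 than in IWP2, and 4.2% higher and 10.1% lower in CT1.0 than in CT0.4. Median log2 differences of the 68 were 0.08, -0.20 and -0.27, against 0, -0.08 and -0.05 over all genes. Each pair of comparisons shares a group of libraries. With median-ratio scaling the split between CT1.0 and IWP2 was 14 higher and 14 lower. Leaving out the libraries of WT 1 gave 17, 14 and 21 calls in the 3 comparisons, and leaving out those of WT 2 gave 20, 16 and 19. Fitting only the libraries compared gave 11, 11 and 7.

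EPHA7, a receptor of A ephrins that is patterned along the neural tube, showed the widest range. On day 8 it had 426 and 332 TPM in the WT CT0.4 libraries, against 7.1 and 8.09 TPM in the IWP2 ones and 20.3 and 19 TPM in the CT1.0 ones. The lowest CT0.4 library thus stood far above every library of the other labels. The log2 difference was 5.46 ± 0.19 for CT0.4 over IWP2 (adjusted p = 4.93e-12), -4.20 ± 0.19 for CT1.0 over CT0.4 (adjusted p = 4.47e-10) and 1.26 ± 0.19 for CT1.0 over IWP2 (adjusted p = 0.000199). The KO libraries of day 8 showed the same order, with 455 and 484 TPM for CT0.4, 37.4 and 40.4 TPM for CT1.0 and 7.81 and 7.23 TPM for IWP2. EPHA7 was already set apart by label on day 4, at 56.9 and 48 TPM in WT CT0.4 cells, 6.09 and 5.73 TPM in WT CT1.0 cells and 9.2 and 8.57 TPM in WT IWP2 cells.

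The slits, secreted repellents, divided between the CT labels. SLIT2 had 41.8 and 31 TPM in the WT CT0.4 libraries of day 8, against 4.04 and 3.71 TPM in IWP2 (log2 difference 2.93 ± 0.30, adjusted p = 2.25e-06). SLIT3 had 20.4 and 14.5 TPM in CT0.4, against 1.06 and 1.72 TPM in IWP2 (log2 difference 2.94 ± 0.27, adjusted p = 5.55e-07). In CT1.0 both were low, at 4.41 and 4.27 TPM for SLIT2 and 1.65 and 1.84 TPM for SLIT3, and both were lower there than in CT0.4 (log2 differences -2.80 ± 0.30 and -2.74 ± 0.27).

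SLIT1 had the reverse order and was highest in CT1.0. Its levels were 14.2 and 14.7 TPM in WT CT1.0 cells, against 1.64 and 2.26 TPM under CT0.4 and 0.942 and 0.705 TPM under IWP2. The log2 difference was 3.08 ± 0.27 for CT1.0 over IWP2 (adjusted p = 5.31e-07) and 2.40 ± 0.27 for CT1.0 over CT0.4 (adjusted p = 6.23e-06). All 3 slits kept this order in KO cells, where SLIT1 had 13.6 and 14.2 TPM in CT1.0 and 4.24 and 1.82 TPM in CT0.4. Of their receptors, ROBO2 was at 28.3 and 21.8 TPM in WT CT0.4 cells of day 8, against 10.6 and 7.86 TPM in IWP2, but this call was lost without WT 1 (adjusted p = 0.0613) and without WT 2 (adjusted p = 0.053). ROBO1 was lower in CT1.0 than in IWP2, at 33.3 and 32.1 TPM against 101 and 96.3 TPM (log2 difference -1.57 ± 0.19, adjusted p = 2.34e-05).

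Netrin receptors went together in the comparison of the CT labels. DCC and the 4 UNC5 genes were all called lower in CT1.0 than in CT0.4, and each of the 5 calls held without WT 1 and without WT 2. Their summed level was 9.51 and 12.8 TPM in the WT CT1.0 libraries, against 103 and 146 TPM in the CT0.4 ones. UNC5D had 1.46 and 1.3 TPM in CT1.0, against 71.8 and 54.7 TPM in CT0.4 (log2 difference -4.74 ± 0.20, adjusted p = 2.05e-10), and UNC5B had 2.44 and 2.06 TPM, against 22 and 16.8 TPM (log2 difference -2.64 ± 0.21, adjusted p = 1.27e-07). DCC, which mediates attraction to netrin, had 4.81 and 3.55 TPM in CT1.0, against 29.1 and 14.6 TPM in CT0.4 (log2 difference -2.08 ± 0.34, adjusted p = 0.000377).

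NTN4, a netrin of basement membranes, was lower in CT0.4 than in IWP2. It had 0.781 and 3.72 TPM in the WT CT0.4 libraries of day 8 and 13.2 and 18.9 TPM in the CT1.0 ones, against 40.3 and 43.7 TPM in IWP2. CT0.4 lay below IWP2 by a log2 difference of -3.89 ± 0.51 (adjusted p = 3.49e-05). CT1.0 against IWP2 was not called, at -1.35 ± 0.51 (adjusted p = 0.109). CT1.0 lay above CT0.4 by 2.54 ± 0.51 (adjusted p = 0.00196), a call that ended without WT 1 (adjusted p = 0.0795). KO cells on day 8 had 3.02 and 0.975 TPM of NTN4 in CT0.4, 8.01 and 6.31 TPM in CT1.0 and 38.6 and 44 TPM in IWP2.

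**Figure D3:**
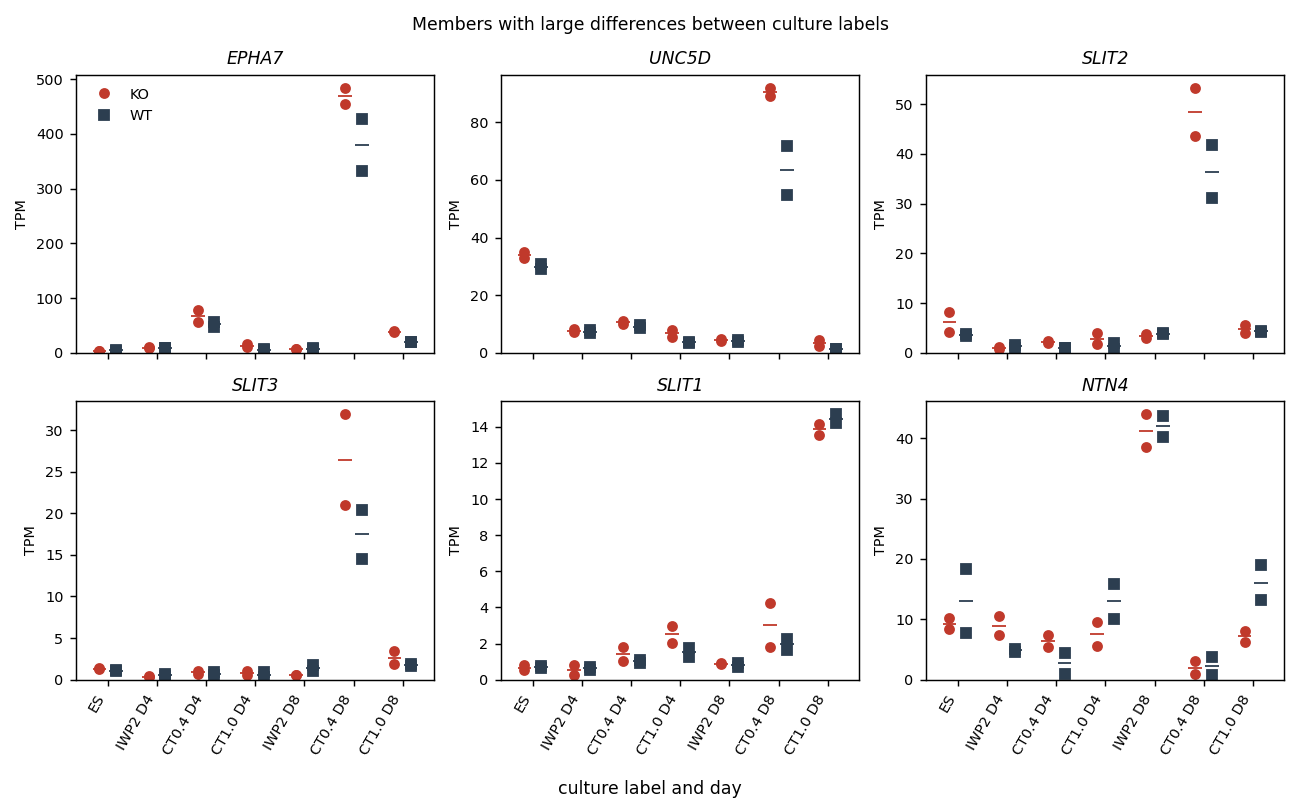
TPM of EPHA7, UNC5D, SLIT2, SLIT3, SLIT1 and NTN4 in each library, by label and day on the horizontal axis, with KO as circles left of WT as squares and the group mean as a short line. EPHA7, UNC5D, SLIT2 and SLIT3 are highest in CT0.4 on day 8, SLIT1 in CT1.0 on day 8, and NTN4 in IWP2 on day 8.

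Among the semaphorins, 5 of the 7 class 3 genes were called lower in CT1.0 than in CT0.4 and 0 higher, while of the 7 class 5 to 7 genes 3 were called higher and 0 lower. Against IWP2 the order was mixed, with 2 class 3 genes lower in CT1.0 (SEMA3B and SEMA3F) and 1 higher, and with 1 class 5 to 7 gene higher and 4 lower. The class 3 gene that was higher, SEMA3C, had 2.57 and 1.93 TPM in WT CT1.0 cells, against 0.398 and 0.492 TPM in IWP2, a call that ended without WT 1 (adjusted p = 0.269) and without WT 2 (adjusted p = 0.085). The call of SEMA3B against IWP2 ended without WT 2 (adjusted p = 0.112). The calls of SEMA3C, SEMA3D and SEMA5A between the CT labels each ended without WT 1 and without WT 2. SEMA3F, which repels axons through NRP2, had 7.15 and 8.42 TPM in WT CT1.0 cells of day 8, against 40.8 and 44.6 TPM under CT0.4 and 58.1 and 59.1 TPM under IWP2. The log2 difference was -2.32 ± 0.19 for CT1.0 over CT0.4 (adjusted p = 1.69e-07) and -2.77 ± 0.19 for CT1.0 over IWP2 (adjusted p = 3.08e-08). NRP2 itself had the opposite order, at 124 and 107 TPM in CT1.0, against 22.9 and 17 TPM under CT0.4 and 22.4 and 17.6 TPM in IWP2, with log2 differences of 2.48 ± 0.26 and 2.47 ± 0.26 (adjusted p = 2.59e-06 and 3.74e-06).

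SEMA3A, which is secreted, and SEMA5B, which is membrane-bound, differed in opposite directions between the CT labels. SEMA3A, the ligand of NRP1, had 13.4 and 11.4 TPM in WT CT1.0 cells, against 41 and 55 TPM in CT0.4 (log2 difference -1.86 ± 0.29, adjusted p = 0.000218). SEMA5B had 80.8 and 82.1 TPM in CT1.0, against 25.9 and 30.9 TPM in CT0.4 (log2 difference 1.49 ± 0.15, adjusted p = 1.44e-06). SEMA5A was lower in CT0.4 than in IWP2, at 8.33 and 7.79 TPM against 32.7 and 34.6 TPM (log2 difference -1.94 ± 0.24, adjusted p = 1.91e-05).

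B ephrins differed by member and label. EFNB1 was highest in IWP2, and it had 55.5 and 53.9 TPM in WT CT0.4 cells, against 179 and 187 TPM in IWP2 (log2 difference -1.72 ± 0.15, adjusted p = 3.98e-07). EFNB2 had 120 and 103 TPM in CT1.0 and 91 and 84.8 TPM in CT0.4, against 25.2 and 24.5 TPM in IWP2. EFNB3 had 89.4 and 82.1 TPM in CT1.0 and 64 and 52.5 TPM in CT0.4, against 16.6 TPM in both IWP2 libraries. CT1.0 over IWP2 gave log2 differences of 2.12 ± 0.15 for EFNB2 (adjusted p = 5.02e-08) and 2.30 ± 0.12 for EFNB3 (adjusted p = 2.13e-09).

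Promoters of EPHA7 and SLIT1 are shown because these genes were highest in CT0.4 and in CT1.0 on day 8. Each is the 250 bases before a RefSeq gene start (GRCh38.p14), on the gene's strand, 5′ to 3′. The EPHA7 window is chr6:93419560-93419809 on the minus strand and is the first of 3 listed for the gene, and the SLIT1 window is chr10:97185960-97186209 on the minus strand. Capitals mark a match to CTTTGA, a core bound by TCF and LEF factors of the WNT pathway. Both strands were searched for it and for ACAAT, a core bound by SOX factors.
EPHA7: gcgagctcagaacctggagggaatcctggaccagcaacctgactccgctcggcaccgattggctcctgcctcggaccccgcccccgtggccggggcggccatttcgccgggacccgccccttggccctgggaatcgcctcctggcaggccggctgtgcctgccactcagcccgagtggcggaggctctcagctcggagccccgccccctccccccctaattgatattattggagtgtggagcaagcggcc
SLIT1: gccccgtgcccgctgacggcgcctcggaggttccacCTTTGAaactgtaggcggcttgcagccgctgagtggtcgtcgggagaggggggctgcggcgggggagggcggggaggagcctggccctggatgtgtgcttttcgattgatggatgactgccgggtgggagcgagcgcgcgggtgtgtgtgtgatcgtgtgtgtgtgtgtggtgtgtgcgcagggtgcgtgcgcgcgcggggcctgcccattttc
EPHA7 had no match to ACAAT or CTTTGA in this window, and SLIT1 had 1 match to CTTTGA. RefSeq windows were matched for 59 of the 68 genes, 91 windows in all, of which 16 (17.6%) held ACAAT and 9 (9.9%) held CTTTGA. Of all 35116 windows of the same length 24.6% held ACAAT and 11.2% held CTTTGA, and the motifs overlapped in 0 windows of these genes. These matches describe letters and not binding.

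Loss of SOX1 was compared with WT in each of the 7 combinations of label and day. Calls among the 68 genes were made in 3 of them, CT0.4 on day 4 (7), CT1.0 on day 4 (17) and CT1.0 on day 8 (20), and 34 genes were called in at least 1. ES cells and the IWP2 label on both days had 0 calls, with limma as the tool, and 5, 4 and 5 genes at unadjusted p under 0.05. Of all 27912 genes, 3007, 2317 and 1408 had unadjusted p under 0.05 in that order, and 2591 did in CT0.4 on day 8. Over all genes 0.219% were called in ES cells, 0.043% in IWP2 on day 4 and 0.0609% in IWP2 on day 8. SOX1 itself was not called in ES cells or in IWP2 on either day. CT0.4 on day 8 also had 0 calls, with 14 genes at unadjusted p under 0.05 and 0.416% of all genes called, and 1 call without WT 1. EPHA10 had the largest difference among these uncalled values, at 24.2 and 21.6 TPM in KO CT0.4 cells, against 6.17 and 2.89 TPM in WT CT0.4 cells (log2 difference 2.18 ± 0.55, adjusted p = 0.12). EPHA10 was picked out after its values were seen. Where only the libraries compared were fitted, each of these 7 comparisons had 0 calls, so every call of KO against WT below rests on the spread estimated over all 28 libraries.

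On day 4 EFNA3, SEMA3F and PLXNB1 were called higher in KO than in WT cells under both CT labels. In CT0.4 the call of PLXNB1 ended without KO 26, KO 48 or WT 1 (adjusted p = 0.145, 0.141 and 0.325). Of the 7 class 3 semaphorins 2 were called higher under each label, SEMA3B and SEMA3F in CT0.4 and SEMA3A and SEMA3F in CT1.0. In CT0.4, 7 genes were higher and 0 lower in KO, a share of 10.3% against 4.24% of all genes (3.67% higher, 0.566% lower) and 6.03% of protein-coding genes. In CT1.0, 14 were higher and 3 lower, a share of 25% against 14.9% of all genes (12.4% higher, 2.49% lower) and 20.4% of protein-coding genes. Median log2 differences of the 68 were 0.26 in CT0.4 and 0.26 in CT1.0, against 0.13 and 0.20 over all genes, and the median of all genes lay above 0 under both labels. With median-ratio scaling the splits were 4 higher and 1 lower in CT0.4 and 9 higher and 8 lower in CT1.0. Both comparisons use the 4 WT libraries that stand apart, and no value without them could be had.

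EFNA3, an A ephrin, was the gene called under both CT labels that held in every leave-out. It had 27 and 31.2 TPM in KO CT0.4 cells of day 4, against 11.4 and 10.1 TPM in WT CT0.4 cells (log2 difference 1.36 ± 0.21, adjusted p = 0.00218). It had 37.7 and 44.4 TPM in KO CT1.0 cells, against 9.49 and 11.1 TPM in WT CT1.0 cells (log2 difference 1.89 ± 0.21, adjusted p = 3.91e-05). On day 8 the groups overlapped, with 17.5 and 19.5 TPM in KO CT1.0 cells, against 17.2 and 21.6 TPM in WT CT1.0 cells.

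SEMA3A and SEMA3F had the largest differences among the semaphorins in CT1.0 on day 4. There, SEMA3F had 42.6 and 28.7 TPM in KO cells, against 6.87 and 8.55 TPM in WT cells (log2 difference 2.05 ± 0.19, adjusted p = 8.77e-06). SEMA3A had 45 and 21.9 TPM in KO cells, against 5.91 and 4.67 TPM in WT cells (log2 difference 2.38 ± 0.29, adjusted p = 7.17e-05). In CT0.4, SEMA3F had 48.7 and 55.2 TPM in KO cells, against 21.6 and 31.9 TPM in WT cells (log2 difference 0.96 ± 0.19, adjusted p = 0.00906), and that call ended without WT 1 (adjusted p = 0.163) and without KO 48 (adjusted p = 0.0557). SEMA3A in CT0.4 overlapped, at 65.4 and 92.1 TPM in KO cells and 78.3 and 63 TPM in WT cells. SEMA3B in CT0.4 had 8.48 and 6.2 TPM in KO cells, against 2.06 and 3.72 TPM in WT cells (log2 difference 1.12 ± 0.27, adjusted p = 0.027), and its call ended without WT 1 (adjusted p = 0.281) and without KO 26 (adjusted p = 0.203).

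Receptors also changed in CT1.0 on day 4. ROBO1 had 93.7 and 64 TPM in KO cells, against 33.2 and 36.5 TPM in WT cells (log2 difference 1.13 ± 0.19, adjusted p = 0.000828). PLXND1, a receptor of SEMA3E in vessels and neurons, had 19.9 and 20 TPM in KO cells, against 9.13 and 7.01 TPM in WT cells (log2 difference 1.22 ± 0.24, adjusted p = 0.00242). EPHA7 had 16.2 and 9.96 TPM in KO cells, against 6.09 and 5.73 TPM in WT cells (log2 difference 0.99 ± 0.19, adjusted p = 0.00202).

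Of the 3 genes that fell in CT1.0 on day 4, a pair were semaphorins and the other was NRP2. SEMA5A had 5.96 and 11.8 TPM in KO cells, against 23.5 and 23.6 TPM in WT cells (log2 difference -1.38 ± 0.24, adjusted p = 0.00106). SEMA6D had 1.67 and 2.08 TPM in KO cells, against 5.43 and 7.56 TPM in WT cells (log2 difference -1.37 ± 0.26, adjusted p = 0.00184). NRP2 had 92.3 and 169 TPM in KO cells, against 294 and 326 TPM in WT cells (log2 difference -1.30 ± 0.26, adjusted p = 0.00269), and this call ended without KO 26 (adjusted p = 0.0619).

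The number of day 4 calls moved when the libraries of one number were left out. In CT0.4 it was 1 without WT 1, 2 without KO 26 and 4 without KO 48, against 7 with all libraries. In CT1.0 it was 11 without WT 1 and 10 without KO 26, against 17. EFNA3, PLXNB1, SEMA3F, ROBO1, PLXND1, SEMA5A, EPHA7, SEMA3A, SEMA6D and SEMA6B were the 10 genes of CT1.0 called in every leave-out. ROBO3, a ROBO receptor of commissural axons with 21.9 and 22.7 TPM in KO and 10.1 and 7.56 TPM in WT CT1.0 cells, had a log2 difference of 1.26 ± 0.35 (adjusted p = 0.0211) and lost its call in each of them, at adjusted p of 0.0551 to 0.136.

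**Figure D4:**
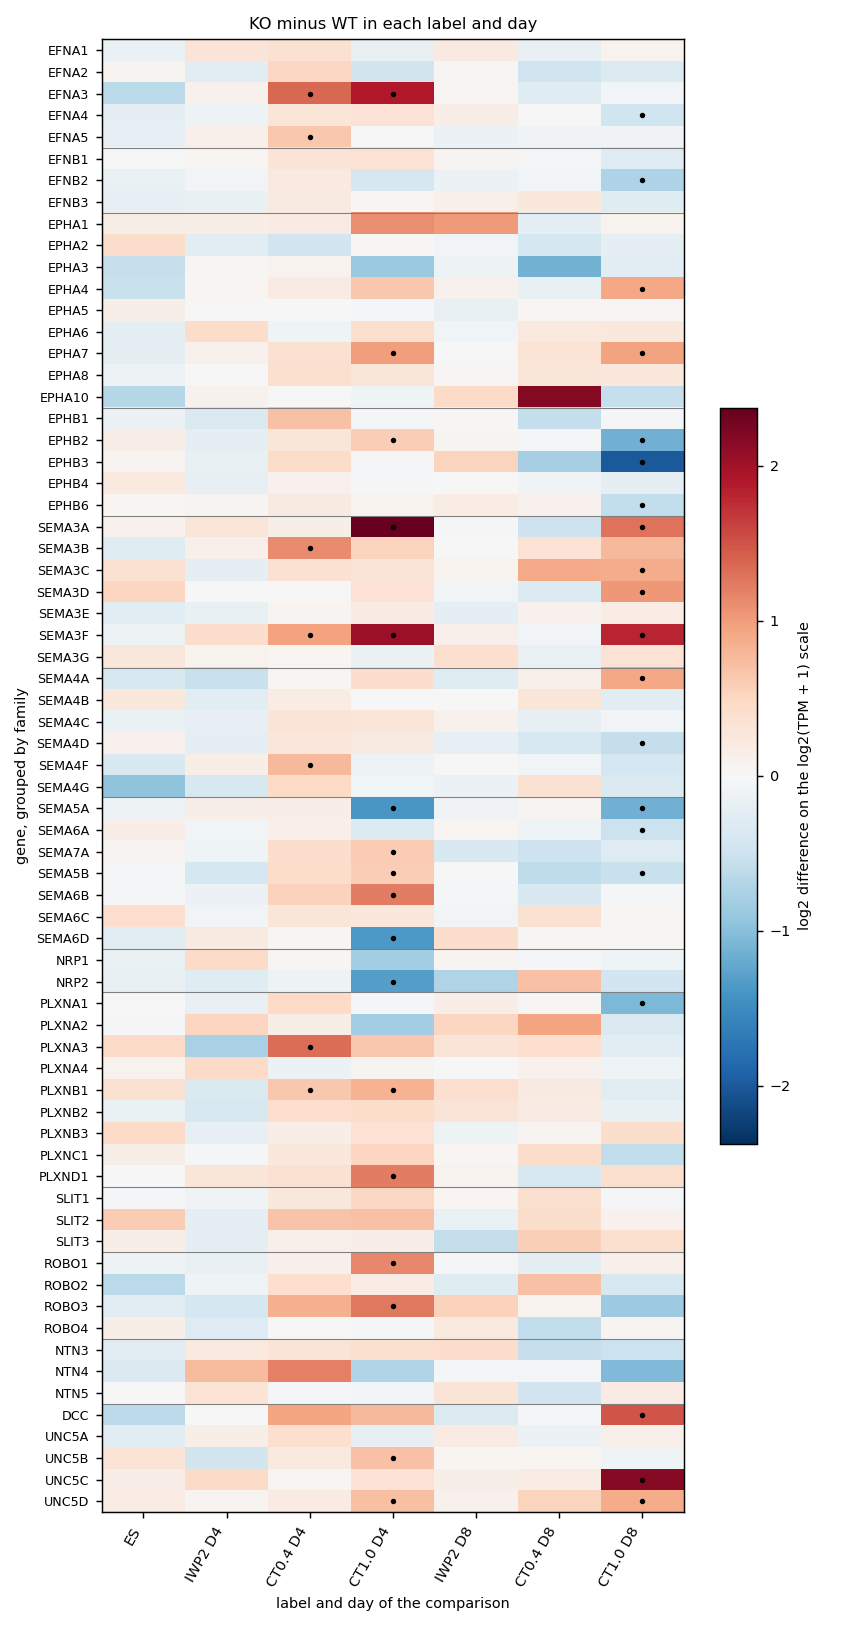
KO minus WT for each of the 68 genes, as log2 difference on the log2(TPM + 1) scale, with genes in rows and the 7 combinations of label and day in columns. Red is higher in KO, and a dot marks a call at adjusted p under 0.05; the dots fall in CT0.4 on day 4 (7 genes), CT1.0 on day 4 (17) and CT1.0 on day 8 (20).

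On day 8 in CT1.0, 4 of the 7 class 3 semaphorins and 3 of the 5 DCC and UNC5 genes were called higher in KO cells than in WT cells, and 3 of the 5 type B Eph receptors were called lower. Calls were made for 20 of 68 genes, 10 higher and 10 lower, a share of 29.4% against 14.3% of all genes (4.34% higher, 9.96% lower) and 22.3% of protein-coding genes. The median log2 difference of the 68 was -0.09, against -0.02 over all genes. With median-ratio scaling the split was 11 higher and 7 lower. The count was 5 without KO 26, 11 without WT 1 and 12 without WT 2. UNC5C, SEMA3F, EPHA7, EPHB2 and EPHB3 were called in every leave-out.

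Among the receptors of netrin, UNC5C, which mediates repulsion, had 18.4 and 12.3 TPM in KO CT1.0 cells, against 3.19 and 2.05 TPM in WT CT1.0 cells. Its log2 difference was 2.17 ± 0.29 (adjusted p = 0.000202). DCC had 18.4 and 9.92 TPM in KO cells, against 4.81 and 3.55 TPM in WT cells (log2 difference 1.50 ± 0.34, adjusted p = 0.00765), a call that ended without KO 26 (adjusted p = 0.154) and without WT 2 (adjusted p = 0.065). KO 26 stood above KO 48 for both genes, and neither genotype's libraries overlapped the other's. The summed DCC and UNC5 level averaged 35.9 ± 11.5 TPM in KO and 11.1 ± 2.30 TPM in WT cells (SD, n = 2 each).

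SEMA3F had 30.8 and 28.3 TPM in KO CT1.0 cells on day 8, against 7.15 and 8.42 TPM in WT CT1.0 cells (log2 difference 1.80 ± 0.19, adjusted p = 2.76e-05). SEMA3A had 40.6 and 24.7 TPM in KO cells, against 13.4 and 11.4 TPM in WT cells (log2 difference 1.29 ± 0.29, adjusted p = 0.00694), and the call ended without KO 26 (adjusted p = 0.143) and without WT 2 (adjusted p = 0.0542). SEMA3C and SEMA3D were called at adjusted p of 0.047 and 0.0471, with log2 differences of 0.87 ± 0.28 and 1.04 ± 0.33. Both calls ended without KO 26 (adjusted p = 0.32 and 0.533), without WT 1, without WT 2 and at a pseudocount of 0.1, and the call of SEMA3C also ended without KO 48. In EPHA7, KO cells had 37.4 and 40.4 TPM, against 20.3 and 19 TPM in WT cells (log2 difference 0.95 ± 0.19, adjusted p = 0.00296).

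EPHB3 and EPHB2, type B Eph receptors, had the largest falls of the 68 genes. EPHB3 had 2.1 and 5.44 TPM in KO CT1.0 cells, against 17.9 and 15.6 TPM in WT CT1.0 cells (log2 difference -1.99 ± 0.31, adjusted p = 0.000576). EPHB2 had 19.5 and 30.3 TPM in KO cells, against 53.2 and 57.5 TPM in WT cells (log2 difference -1.15 ± 0.15, adjusted p = 0.000163). The groups did not overlap for either receptor. EPHB6, the other type B receptor called, had 7.26 and 9.56 TPM in KO cells, against 13.5 and 12.7 TPM in WT cells (log2 difference -0.59 ± 0.18, adjusted p = 0.0366), and its call ended without KO 26 (adjusted p = 0.348), WT 1 (adjusted p = 0.18) or WT 2 (adjusted p = 0.1). EPHB1 was not called, at 24.9 and 24.7 TPM in KO and 24.4 and 27.3 TPM in WT cells. EPHB4, the receptor of EFNB2 in vessels, was not called, at 40.7 and 41.8 TPM in KO and 47.9 and 49.3 TPM in WT cells.

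PLXNA1, SEMA5A and EFNB2 also fell on day 8 in CT1.0, and these 3 calls depended most on KO 26. PLXNA1, a plexin that forms class 3 semaphorin receptors with neuropilins, had 46.1 and 68.8 TPM in KO cells, against 123 and 117 TPM in WT cells (log2 difference -1.07 ± 0.21, adjusted p = 0.00275; 0.0764 without KO 26). SEMA5A had 5.35 and 9.86 TPM in KO cells, against 17.6 and 16.9 TPM in WT cells (log2 difference -1.14 ± 0.24, adjusted p = 0.00449; 0.115 without KO 26). EFNB2 had 61.7 and 72.5 TPM in KO cells, against 120 and 103 TPM in WT cells (log2 difference -0.73 ± 0.15, adjusted p = 0.00428), and its call ended without KO 26 (adjusted p = 0.0818) and without WT 1 (adjusted p = 0.0639). For each of these 3 genes KO 26 was the lowest of the 4 libraries compared. SEMA6A and SEMA4D were called lower as well, and their calls ended without KO 48 and without WT 1 as well as without KO 26.

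Days 4 and 8 of CT1.0 shared 7 called genes, which were 41.2% of the 17 called on day 4 and 35% of the 20 called on day 8. Of these, 5 had the same direction, with SEMA3A, SEMA3F, EPHA7 and UNC5D higher and SEMA5A lower in KO on both days. The call of UNC5D ended on day 4 without KO 26, WT 1 or WT 2 (adjusted p = 0.234, 0.113 and 0.0717) and on day 8 without KO 26 (adjusted p = 0.16). The other 2, EPHB2 and SEMA5B, were called higher on day 4 and lower on day 8. EPHB2 had 55.5 and 47.7 TPM in KO CT1.0 cells on day 4, against 33.3 and 35 TPM in WT CT1.0 cells (log2 difference 0.58 ± 0.15, adjusted p = 0.0156). That day 4 call ended without WT 1, WT 2 or KO 26 (adjusted p = 0.1, 0.0538 and 0.146) and with median-ratio scaling (adjusted p = 0.15), and the change of direction between days was not tested. The call of SEMA5B ended on day 4 without KO 26 or WT 1 (adjusted p = 0.142 and 0.0933) and on day 8 without KO 26, WT 1 or WT 2 (adjusted p = 0.365, 0.101 and 0.0926).

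**Figure D5:**
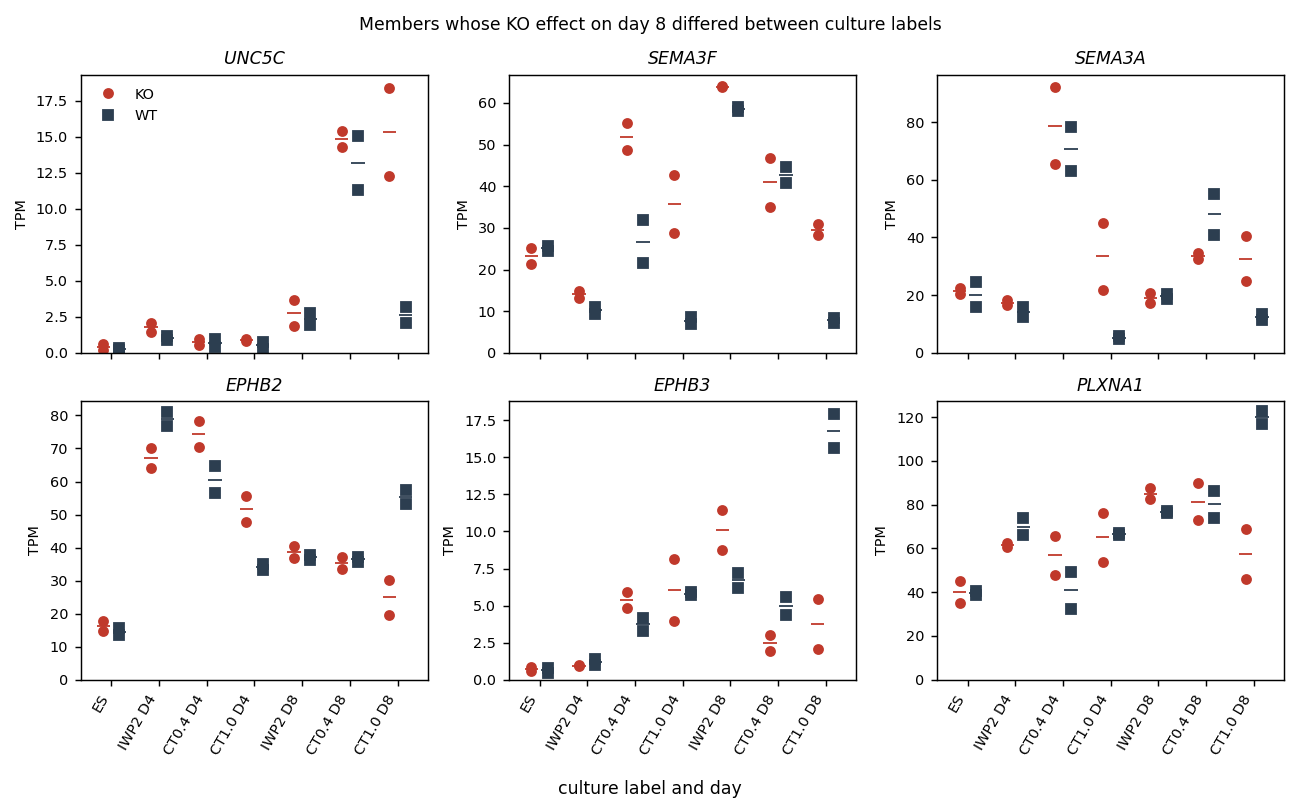
TPM of UNC5C, SEMA3F, SEMA3A, EPHB2, EPHB3 and PLXNA1 in each library, by label and day on the horizontal axis, with KO as circles left of WT as squares and the group mean as a short line. In CT1.0 on day 8 all KO libraries lie above all WT libraries for UNC5C, SEMA3F and SEMA3A and below them for EPHB2, EPHB3 and PLXNA1.

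Promoters of SEMA3F and PLXNA1 are shown as the 250 bases before a RefSeq start (GRCh38.p14) of a gene that was higher and a gene that was lower in KO CT1.0 cells of day 8. The SEMA3F window is chr3:50154808-50155057 on the plus strand and is the first of 3 listed, and the PLXNA1 window is chr3:126982865-126983114 on the plus strand. Capitals again mark CTTTGA.
SEMA3F: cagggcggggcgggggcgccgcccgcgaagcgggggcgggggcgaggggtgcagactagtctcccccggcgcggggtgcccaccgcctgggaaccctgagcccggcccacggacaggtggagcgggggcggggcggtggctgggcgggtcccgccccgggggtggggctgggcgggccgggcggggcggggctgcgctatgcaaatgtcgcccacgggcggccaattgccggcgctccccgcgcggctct
PLXNA1: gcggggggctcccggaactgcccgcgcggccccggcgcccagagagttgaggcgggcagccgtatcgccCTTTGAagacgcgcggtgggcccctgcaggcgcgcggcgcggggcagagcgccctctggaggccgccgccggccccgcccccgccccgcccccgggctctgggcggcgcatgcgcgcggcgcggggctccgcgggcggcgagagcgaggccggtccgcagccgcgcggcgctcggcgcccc
SEMA3F had no match to ACAAT or CTTTGA here, and PLXNA1 had 1 match to CTTTGA.

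Whether the effect of SOX1 loss differed between labels on day 8 was tested as an interaction. Between CT1.0 and IWP2 it differed for 7 of 68 genes (10.3%, against 3.22% of all genes and 5.06% of the protein-coding genes in the same fit), with 3 more positive in CT1.0 and 4 more negative. Between CT1.0 and CT0.4 it differed for 5 genes (7.35%, against 4.6% and 6.96%), 3 more positive and 2 more negative. Leaving out WT 1, WT 2, KO 26 or KO 48 gave 0, 1, 2 and 11 calls against IWP2, and 2, 2, 1 and 8 calls against CT0.4. No filter on low values gave 4 and 3 calls, and fitting only the libraries compared gave 1 and 0. Fitting protein-coding genes alone gave 11 calls against IWP2 (16.2%, with 9.22% of the 15525 genes called) and 10 against CT0.4 (14.7%, with 10.9%). Between CT0.4 and IWP2 it differed for 0 of the 68 genes, with limma as the tool (0.147% of all genes called). Unadjusted p was under 0.05 for 9 of the 68 genes, against 1843 of all 27912 genes. Among the interactions called for the 68 genes, the order by size follows. The largest was that of EPHB3, at -2.51 ± 0.44 for CT1.0 against IWP2 (adjusted p = 0.00663). EPHB3 had 8.74 and 11.5 TPM in KO IWP2 cells, against 7.17 and 6.21 TPM in WT IWP2 cells, where it was not called. Its interaction ended without WT 1 (adjusted p = 0.082) and without WT 2 (adjusted p = 0.0652). SEMA3F differed by 1.87 ± 0.27 between CT1.0 and CT0.4 (adjusted p = 0.00167), the interaction called in every leave-out. With median-ratio scaling the splits were 5 and 3 for CT1.0 against IWP2 and 3 and 1 for CT1.0 against CT0.4. The comparisons share the CT1.0 libraries, which also enter the WT comparisons of labels.

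A list of 58 further genes of these pathways, such as intracellular effectors, co-receptors and adhesion molecules, gave 56 tested genes. In KO CT1.0 cells on day 8, 4 were higher and 23 lower than in WT, 48.2% of the list, against 14.3% of all genes (9.96% lower) and 22.3% of protein-coding genes. RGMA, a repulsive ligand of neogenin, changed by -2.19 (adjusted p = 0.000102), L1CAM, an adhesion molecule of axons, by -1.51 (adjusted p = 0.000669), CRMP1, a mediator of semaphorin signals, by -1.39 (adjusted p = 0.000202), and CDON, a netrin and hedgehog co-receptor, by 1.82 (adjusted p = 1.55e-05) on the log2 scale. On day 4, 4 were higher and 0 lower in CT0.4 (7.14%, against 4.24% of all genes and 6.03% of protein-coding genes), and 15 were higher and 5 lower in CT1.0 (35.7%, against 14.9% and 20.4%), where CNTN2, an axonal contactin, changed by 3.38 (adjusted p = 0.000431). Between labels in WT cells on day 8, 11 were higher and 10 lower for CT0.4 over IWP2, 6 and 8 for CT1.0 over IWP2, and 9 and 15 for CT1.0 over CT0.4. These were 37.5%, 25% and 42.9% of the list, against 12.2%, 10.8% and 14.3% of all genes and 17.9%, 16.6% and 21.6% of protein-coding genes. In the same cells RND1, a small GTPase that binds plexins, was higher in CT0.4 than in IWP2 by 2.88 (adjusted p = 1.21e-08).

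Cell type markers also differed between the culture labels in WT cells of day 8. Surface ectoderm markers, 5 of 7 at 1 TPM or more under each label with CDH1 under 1 TPM throughout, summed to 229 to 297 TPM in CT0.4 and 48.5 to 58.4 TPM in CT1.0, against 279 to 290 TPM in IWP2. Neural crest markers summed to 55.5 to 65.2 TPM in CT0.4 and 142 to 146 TPM in CT1.0, against 212 to 226 TPM in IWP2, with FOXD3 and SOX10 under 1 TPM in all of these libraries. Neuronal markers summed to 547 to 656 TPM in CT0.4 and 747 to 936 TPM in CT1.0, against 474 to 478 TPM in IWP2, where ELAVL4 and NHLH1 were under 1 TPM. The part of these markers in the differences between labels was not tested.

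On day 4, progenitor markers summed to 1179 to 1348 TPM in KO CT1.0 cells, against 1451 to 1563 TPM in WT CT1.0 cells, and to 1369 to 1525 TPM in KO CT0.4 cells, against 1276 to 1309 TPM in WT CT0.4 cells, with all 8 at 1 TPM or more. In CT1.0 the progenitor marker NES was lower in KO cells, at 211 and 396 TPM against 529 and 622 TPM. VIM was higher in KO cells there, at 524 and 505 TPM against 437 and 452 TPM. Crest markers summed to 70.5 to 115 TPM in KO CT1.0 cells, against 123 to 130 TPM in WT CT1.0 cells, with FOXD3 and SOX10 under 1 TPM. The 5 endothelial and blood markers, with CDH5 and PTPRC under 1 TPM, summed to 7.78 to 16.6 TPM in KO CT1.0 cells, against 32.3 to 32.7 TPM in WT CT1.0 cells. Nearly all of that WT sum was TEK, at 30.7 and 31.5 TPM, against 3.91 and 13.9 TPM in KO CT1.0 cells. KDR went the other way, at 2.34 and 0.7 TPM in KO and 0.35 and 0.302 TPM in WT CT1.0 cells. The part of these markers in the KO differences of day 4 was not tested.

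Cell type markers moved with genotype in CT1.0 on day 8. The summed level of 8 neuronal markers was 294 and 470 TPM in KO CT1.0 cells, against 747 and 936 TPM in WT CT1.0 cells, with all 8 at 1 TPM or more in both genotypes. Most of that difference was TUBB3, at 97.3 and 239 TPM in KO and 606 and 514 TPM in WT cells. STMN2, DCX and ELAVL4 were lower in both KO libraries too. MAP2 overlapped, at 138 and 127 TPM in KO and 151 and 112 TPM in WT cells, as did NHLH1, GAP43 and ELAVL3. The 8 neural progenitor markers summed to 1547 and 1856 TPM in KO and 3007 and 3276 TPM in WT cells. VIM and NES made up most of that difference. VIM had 893 and 908 TPM in KO and 1599 and 1431 TPM in WT cells, and NES 214 and 410 TPM against 1025 and 893 TPM. FABP7 went the other way, at 99.8 and 80.2 TPM in KO and 37.9 and 42.5 TPM in WT cells, and SOX2 overlapped. Surface ectoderm markers, 5 of 7 at 1 TPM or more in both genotypes with CDH1 and GATA3 under 1 TPM, summed to 82.1 and 106 TPM in KO and 48.5 and 58.4 TPM in WT cells. FOXD3 and SOX10, markers of neural crest, were at 2.41 and 0.462 TPM and at 3.82 and 2.56 TPM in KO CT1.0 cells and under 1 TPM in the WT CT1.0 libraries, while the 7 crest markers summed to 116 TPM in both KO CT1.0 libraries and to 142 and 146 TPM in the WT ones. The part of these markers in the KO differences of CT1.0 on day 8 was not tested.

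Several of the 68 genes lie close together in the genome. In GENCODE 29 (GRCh38) ROBO3 and ROBO4 are 2220 bases apart on chromosome 11, on opposite strands, SEMA3F and SEMA3B are 78482 bases apart on chromosome 3, and EFNA4, EFNA3 and EFNA1 are within reach of each other on chromosome 1 with gaps of 9318 and 39921 bases. Neighbours did not always carry the same call. EFNA3 was called higher in KO CT0.4 and CT1.0 cells on day 4 while EFNA4 and EFNA1 were not called there, with 24.8 and 29.3 TPM of EFNA4 in KO CT1.0 cells, against 20.8 and 21.2 TPM in WT CT1.0 cells. SEMA3E, SEMA3A and SEMA3D follow each other on chromosome 7, and of these SEMA3E was not called in any comparison of KO with WT.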

How the data were processed

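RNA was measured in 28 libraries. The authors deposited TPM per gene, abundance corrected for transcript length with the same sum in every column, which keeps no read depth, so counting precision is unknown. CASAVA 1.7, Salmon 0.8.2 and hg38 are named per the submitters' processing notes, and their roles and the annotation release are not given in the sources used here. Per the labels' protocols some libraries were run on a HiSeq2000 and others on an X-ten, without naming which, so run format could not be fitted as a batch. All columns matched a sample by name.

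Genes at 1 TPM or more in at least 2 libraries (27912) were fitted on log2(TPM + 1) with limma 3.58.1 in R 4.3.3 (data.table, version 1.17.8), with 1 mean per group, an intensity trend, 14 residual and 2.76 prior degrees of freedom and no covariate. The pseudocount understates differences of low genes. Adjusted p follows Benjamini and Hochberg over all tested genes within each of 16 comparisons, and the code was tested on simulated data. Figures and summaries used Python 3.11.15, pandas 2.3.3 and matplotlib 3.10.9. The members and lists were chosen with earlier results of these data known. Test values are given for called genes, at most the 8 highest and 8 lowest per comparison, for up to 3 uncalled genes per family by mean TPM, and for at most 4 partner genes per comparison. Library numbers were not treated as pairs. The correlation of their deviations was above 0.1 in 0 of 21 pairs of groups in WT. In KO it was above 0.1 in 8 of 21, so this reason holds for WT only, and a replicate block was run as an alternative. Alternatives were another pseudocount, no filter, median-ratio scaling, only the libraries compared, a replicate block, no trend with robust variances and each library number left out. Fits without the 4 WT CT libraries of day 4, and of protein-coding genes only, were chosen after seeing the data.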

Additional observations from a re-analysis of the deposited data

Results flagged for a closer look

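The effect of SOX1 loss on day 8, KO minus WT, differed between CT1.0 and IWP2 for 7 of the 68 genes by the interaction in limma. It was more positive in CT1.0 for UNC5C by 2.02 (adjusted p = 0.017), for SEMA3F by 1.68 (adjusted p = 0.00369) and for SEMA4A by 1.21 (adjusted p = 0.0478), on the log2(TPM + 1) scale. It was more negative for EFNA4, at -0.64 (adjusted p = 0.0462), EPHB2, at -1.21 (adjusted p = 0.00678), PLXNA1, at -1.22 (adjusted p = 0.0336), and EPHB3, at -2.51 (adjusted p = 0.00663). SEMA4A, a class 4 semaphorin, had 2.83 and 2.37 TPM in KO CT1.0 cells, against 0.75 and 1.06 TPM in WT CT1.0 cells. Its call ended in each leave-out, with adjusted p of 0.106 to 0.266. The calls of UNC5C, PLXNA1 and EFNA4 ended without WT 1 (adjusted p = 0.0568, 0.21 and 0.369), WT 2 (adjusted p = 0.165, 0.156 and 0.0755) and KO 26 (adjusted p = 0.0558, 0.266 and 0.313). Those of SEMA3F ended without WT 1 (adjusted p = 0.068) and KO 26 (adjusted p = 0.0543), and those of EPHB2 without WT 1 (adjusted p = 0.077) and WT 2 (adjusted p = 0.0705).

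Between CT1.0 and CT0.4 it differed for 5 genes. It was more positive in CT1.0 for UNC5C by 1.99 (adjusted p = 0.0141), for SEMA3F by 1.87 (adjusted p = 0.00167) and for SEMA3A by 1.78 (adjusted p = 0.0236), and more negative for PLXNA1, at -1.09 (adjusted p = 0.0448), and EPHB2, at -1.10 (adjusted p = 0.00993). SEMA3A had 32.5 and 34.6 TPM in KO CT0.4 cells, against 41 and 55 TPM in WT CT0.4 cells, the reverse order of CT1.0. The calls of UNC5C, SEMA3A, PLXNA1 and EPHB2 each ended without WT 1, without WT 2 and without KO 26, with adjusted p of 0.0541 to 0.403. Both tests use the CT1.0 libraries.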

How the results depend on the processing

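Precision is limited by 2 libraries a group, an unknown read depth and a spread pooled over all groups. Of 286 gene values called in the comparisons, 277 kept their call with the library number as a replicate block, 253 with median-ratio scaling, 248 with no filter, 272 with no trend and robust variances, 273 with a pseudocount of 0.1, 117 with only the libraries compared and 286 with protein-coding genes only. None of these 286 changed sign under any alternative run. Deviations of same-numbered libraries had correlations of -0.0572 to 0.204 among KO groups (8 of 21 above 0.1) and -0.0937 to 0.0783 among WT groups (0 of 21). The numbers were not taken as pairs in either genotype, although some KO groups shared part of their deviations. With the replicate block the count of calls stayed within 1.5 times in all 16 comparisons.

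With only the libraries compared, calls were 0 for KO against WT in CT0.4 on day 4, in CT1.0 on day 4 and in CT1.0 on day 8. They were then 11 for CT0.4 over IWP2, 11 for CT1.0 over IWP2, 7 for CT1.0 over CT0.4 and 31 for CT0.4 over ES cells, and 1 and 0 for the KO effect of CT1.0 against IWP2 and CT0.4. With no filter, KO against WT in CT0.4 on day 4 had 4 calls, and the KO effect of CT1.0 had 4 against IWP2 and 3 against CT0.4. With median-ratio scaling CT0.4 on day 8 had 1 call. With protein-coding genes only the KO effect of CT1.0 had 11 calls against IWP2 and 10 against CT0.4. The cause was not tested.

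Leaving out a library number gave 1 to 5 calls for KO in CT0.4 on day 4, 10 to 16 in CT1.0 on day 4, 0 to 1 in CT0.4 on day 8 and 5 to 18 in CT1.0 on day 8. It gave 17 to 20 for CT0.4 over IWP2, 14 to 16 for CT1.0 over IWP2 and 19 to 21 for CT1.0 over CT0.4. For the KO effect of CT1.0 it gave 0 to 11 against IWP2 and 1 to 8 against CT0.4. Against ES cells it gave 26 to 29 in IWP2, 38 in CT0.4 and 33 to 42 in CT1.0. A group left with 1 library was assumed to vary like the other groups. Without the 4 WT CT libraries of day 4, 252 of 262 gene values that do not use them kept their call.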
